A study of Mus musculus with 4 samples.

Results

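A set of 10 genes of the blood endothelial surface and of endothelial cell contacts was followed in cultured mouse melanocytes that had or lacked the aryl hydrocarbon receptor (AhR), a ligand-activated transcription factor. The 10 genes were Pecam1, Cdh5, Cd34, Emcn, Esam, Robo4, Icam2, Eng, Plvap and Adgrl4, the last also known as Eltd1. They were chosen by name, with earlier results of these data known, so their shares beside those of all genes are descriptions and no test of the set. All 10 were measured among the 12393 genes that had a probe set with a single gene symbol. They were covered by 13 probe sets, since Cdh5, Eng and Adgrl4 each had 2. The value of a gene was read from its probe set with the highest mean signal over the 4 arrays.

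The cells came from tail skin epidermis of individual female mice and were expanded for 6 to 8 weeks in a serum-free medium that favours melanocytes, the pigment cells of the skin. The wild-type group held 2 C57Bl/6 mice. The AhR knockout group held 2 mice of the AhRtm1Bra strain, which lack exon 2 of the Ahr gene. The allele is constitutive, so every cell type of the knockout mice carried it. The ages of the mice were not given in the sources used here. The labels name the medium as the selection, and they describe no sorting of the cells. Each array held RNA of 1 mouse, so n was 2 in both groups.

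Blood vessels are lined by endothelial cells, which hold to each other through VE-cadherin (Cdh5), PECAM-1 (Pecam1) and ESAM (Esam) at their lateral borders. Their luminal face carries sialomucins such as CD34 and endomucin (Emcn), which shape the contact with leukocytes. Receptors on the same cells read guidance and growth signals, among them ROBO4, endoglin (Eng) and the adhesion G protein-coupled receptor ADGRL4. In skin these genes belong to the dermal vessels, while the epidermis has no vessels of its own.

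Checks of the arrays came first. The median signal over 22690 probe sets was between 89.5 and 98.4, in arbitrary linear units scaled to a common trimmed mean. The 3' to 5' signal ratio of the Gapdh control probe sets was between 1.98 and 2.85 on 3 arrays and was 11.9 on AhR knockout 2, and the same ratio for actin was at most 8.71 on those 3 arrays and was 28.0 on AhR knockout 2. The brighter Ahr probe set read 825 and 874 in the wild-type cultures against 241 and 843 in the knockouts. Its place relative to exon 2 was not looked up, and probes that lie elsewhere in the gene say nothing about the genotype. The brightest probe set of Cyp1b1, an AhR target gene, read 1216 and 1410 in the wild-type cultures against 14.0 and 23.1 in the knockouts, so both knockout arrays lay far below wild type there. The melanocyte genes Dct and Tyrp1 read from 16814 to 32201 and from 19809 to 30093 over the 4 arrays, so these defining markers of the labelled cell type were present.

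The endothelial genes were mostly lower in the knockout cultures, with 1 change past the test. Of the 10 genes, 9 were lower and 1 was higher. Adgrl4 fell over all genes tested, which makes 1 of 10 called lower by limma at an adjusted p under 0.05, against a background of 0.753% of 7436 tested genes. None of the 10 was called higher, and none was higher at an unadjusted p under 0.05, against backgrounds of 0.202% and 7.68%. At an unadjusted p under 0.05, 7 of the 10 were lower, where the background was 12.9%. In 8 of the 10 both knockout arrays lay below both wild-type arrays, where the background was 26.7%. For 7 of these the difference was also at least 1 on the log2 scale, where the background was 10.3%. The median log2 difference of the 10, knockout minus wild type, was -1.76, against 0.0055 over all tested genes. All log2 values here are of signal + 16, which understates the folds of dim genes. In a mixed culture, fewer cells of a type and less RNA per cell cannot be told apart.

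**Figure D1:**
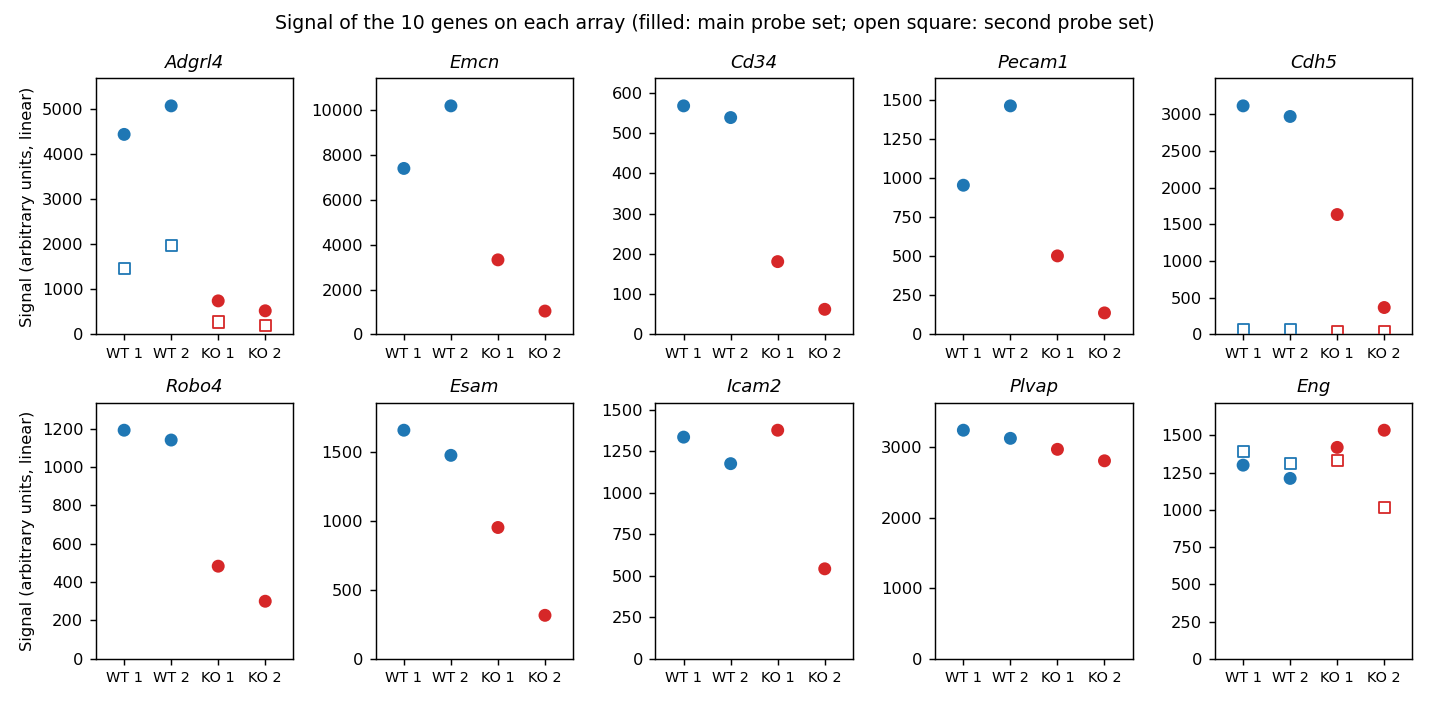
Linear signal of each gene (vertical axis, arbitrary units, starting at 0) on the 2 wild-type arrays (WT, blue) and the 2 AhR knockout arrays (KO, red), with filled circles for the main probe set and open squares for the second. Adgrl4 read 4442 and 5076 in the wild-type cultures against 746 and 525 in the knockouts, while Plvap stayed between 2803 and 3237 on all 4 arrays.

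Cdh5 encodes VE-cadherin, the adhesive core of the endothelial adherens junction. It read 3114 and 2970 in the wild-type arrays, 1634 in AhR knockout 1, and 367 in AhR knockout 2. Both knockout values lay below both wild-type values, and AhR knockout 2 was the lower of the pair. The log2 difference was -1.94 ± 0.59 (SE from limma), with an adjusted p of 0.12, so Cdh5 did not pass. Its second probe set was dim, with readings of 65.0 and 67.8 in the wild-type cultures against 44.6 and 35.5 in the knockouts, and the order of the groups was the same.

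Pecam1 encodes PECAM-1, an immunoglobulin-family adhesion molecule of endothelial borders that platelets and leukocytes also carry. It read 955 and 1463 in wild type, 503 for AhR knockout 1 and only 138 for AhR knockout 2. The groups did not overlap, and Pecam1 had the widest gap between the wild-type arrays of all 10 genes, 0.61 on the log2 scale. Its log2 difference was -2.08 ± 0.55, with an adjusted p of 0.092.

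Esam encodes an adhesion molecule that sits with endothelial tight junctions. It read 1655 and 1473 in the wild-type cultures against 951 and 315 in the knockouts. The groups did not overlap, and AhR knockout 2 was again the lowest array. The log2 difference was -1.48 ± 0.50, with an adjusted p of 0.15.

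Icam2 encodes a ligand of leukocyte integrins that endothelium displays without prior activation. It read 1337 and 1177 in wild type, 1378 for AhR knockout 1 and 543 for AhR knockout 2. The groups overlapped, since AhR knockout 1 was the highest of the 4 arrays and AhR knockout 2 the lowest. The log2 difference of -0.53 ± 0.46 (adjusted p = 0.53) therefore rested on AhR knockout 2, and without that array it was 0.13. Its 95% interval in limma ran from -1.56 to 0.51.

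The sialomucin genes Cd34 and Emcn had the next largest differences after Adgrl4. Emcn encodes endomucin, a heavily glycosylated protein of capillary and venous endothelium. It read 7391 and 10176 in the wild-type cultures against 3321 and 1041 in the knockouts. Both knockout values were less than the lower wild-type value, and the log2 difference was -2.21 ± 0.49 with an adjusted p of 0.066.

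Cd34 encodes a sialomucin of small vessels that is also found on blood progenitors and on hair follicle stem cells. It read 568 and 538 in wild type, close to each other, and 181 and 62.4 in the knockouts. The groups did not overlap. The log2 difference was -2.19 ± 0.46, with an adjusted p of 0.057, just short of the threshold.

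Robo4 encodes the endothelial member of the roundabout receptor family. It read 1193 and 1142 in the wild-type cultures against 483 and 300.4 in the knockouts. Both wild-type arrays lay well above both knockout arrays, and the knockout arrays were closer to each other than for Emcn, Cd34, Pecam1 or Cdh5. The log2 difference was -1.57 ± 0.38, with an adjusted p of 0.076.

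Adgrl4 encodes an orphan adhesion receptor of endothelium, and it had the largest difference of the 10 genes and, among the 7 that differed by at least 1 on the log2 scale, the smallest gap between the knockout arrays. It read 4442 and 5076 in the wild-type cultures against 746 and 525 in the knockouts, so it was low on both knockout arrays. The log2 difference was -2.89 ± 0.36, which is 7.42-fold, with an adjusted p of 0.0208 in limma, or 0.19 with no filter on low signal. Its second probe set read 1464 and 1968 in the wild-type cultures against 277 and 193 in the knockouts, a log2 difference of -2.79. Taken against wild type, the difference came to -2.65 in AhR knockout 1 and to -3.14 in AhR knockout 2.

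Eng and Plvap did not pass the test and differed little from wild type on either knockout array. Eng encodes endoglin, a co-receptor for bone morphogenetic proteins on endothelium. Its main probe set read 1300.3 and 1211 in the wild-type cultures against 1419 and 1535 in the knockouts, a log2 difference of 0.23 ± 0.35 with a 95% interval from -0.55 to 1.01 and an adjusted p of 0.72. The second Eng probe set, of similar brightness, read 1392 and 1309 in the wild-type cultures against 1329 and 1016 in the knockouts, a log2 difference of -0.21. The probe sets of Eng therefore disagreed in sign, and with their mean the difference was 0.023.

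Plvap encodes the protein that forms the diaphragms of endothelial fenestrae and caveolae. It read 3237 and 3122 in the wild-type cultures against 2966 and 2803 in the knockouts. The groups did not overlap, but the log2 difference was only -0.14 ± 0.32, with a 95% interval from -0.85 to 0.57 and an adjusted p of 0.82. The interval of Plvap did not overlap that of Adgrl4, which ran from -3.70 to -2.09.

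**Figure D2:**
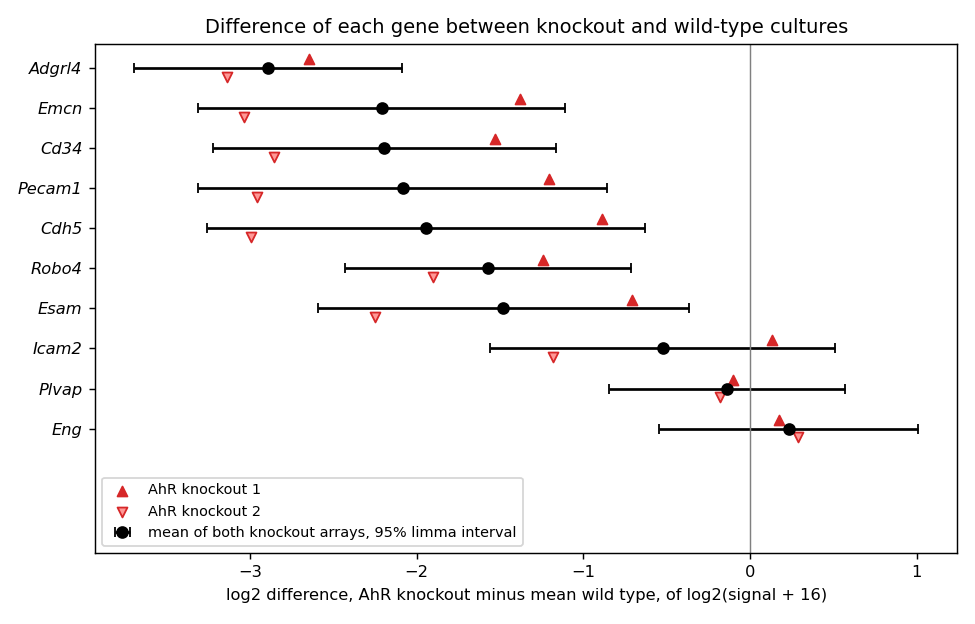
The log2 difference of each gene between AhR knockout and wild type (horizontal axis, log2 of signal + 16), with black circles for the mean over both knockout arrays, bars for the 95% interval from limma, and triangles for each knockout array against the mean of wild type. Adgrl4 lies farthest left at -2.89, and the intervals of Icam2, Plvap and Eng include 0.

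The knockout arrays differed from each other more than the wild-type arrays did. Between the wild-type arrays the absolute log2 difference of the 10 genes was between 0.052 and 0.61, with a median of 0.13. Between the knockout arrays it was between 0.081 and 2.11, with a median of 1.32. The same medians over all tested genes were 0.32 and 0.46.

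AhR knockout 2 was the lower knockout array for 9 of the 10 genes, all but Eng, where the background was 52.8%. It lay below both wild-type arrays for 9 of 10 genes, where the background was 42.5%. AhR knockout 1 did so for 8 of 10, where the background was 39.3%. The median difference from wild type came to -1.05 in AhR knockout 1 and to -2.56 in AhR knockout 2, against 0.079 and -0.029 over all tested genes. The high 3' to 5' control ratios given above were those of AhR knockout 2, and the part of RNA quality in the larger difference was not tested. The gap between the knockout arrays was widest for Cdh5, at -2.11, and was -0.49 for Adgrl4 and -0.081 for Plvap.

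The number of genes called depended on single arrays and on the settings. With AhR knockout 2 left out, 5 of the 10 were called lower, Adgrl4, Cd34, Emcn, Pecam1 and Robo4, against a background of 10.8%. With AhR knockout 1 left out, 8 were called lower, which adds Cdh5, Esam and Icam2, against 11.1%. With wild type 1 left out, 3 were called lower, Adgrl4, Emcn and Pecam1, against 1.49%. With wild type 2 left out it was Adgrl4 alone, against 0.215%. At an adjusted p under 0.10, 5 of the 10 were lower, against 3.78%. With a pseudocount of 64, or with the mean of each gene's probe sets, Cd34 passed beside Adgrl4, which makes 2 of 10 against 0.955% and 0.847%. With no filter on low signal 12393 genes were tested and 0 of the 10 passed in limma, against a background of 0.00807%. At an unadjusted p under 0.05 that fit had 7 of the 10 lower, against 8.3%. In each fit without an array, a group of 1 array is assumed to vary like the other group.

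**Figure D3:**
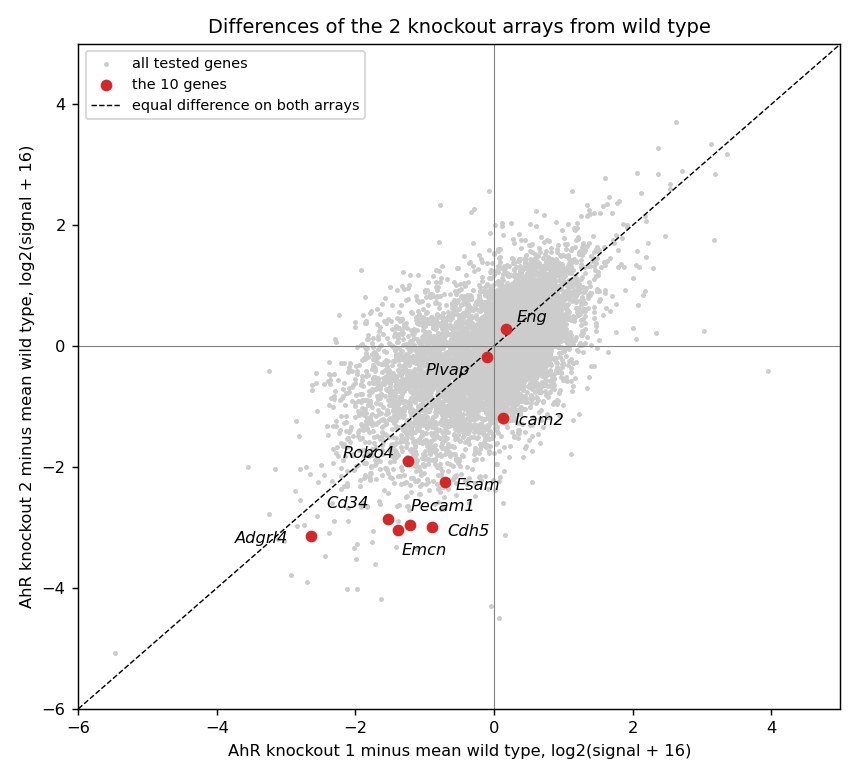
Difference from the mean of wild type in AhR knockout 1 (horizontal axis) and AhR knockout 2 (vertical axis), both as log2 of signal + 16, with grey points for all 7436 tested genes, red points for the 10 genes and a dashed line of equal difference. Of the 10 genes, 9 lie below the line, Adgrl4 and Plvap among those close to it, and Cdh5 farthest from it.

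Upstream sequence was available in the RefSeq promoter table (GRCm38.p6) for 5 of the 10 genes. All 5 are shown, and they were not chosen by their values. Adgrl4, Emcn, Cd34 and Robo4 were low on both knockout arrays and Eng was not. Each sequence is the 250 bases before the gene's start, 5' to 3' on the gene's own strand, and all 5 genes lie on the plus strand. The windows are chr3:151437632-151437881 for Adgrl4, chr3:137340828-137341077 for Emcn, chr1:194938571-194938820 for Cd34, chr9:37401722-37401971 for Robo4 and chr2:32646345-32646594 for Eng. Capitals mark matches, on either strand, to GCGTG (the core bound by AhR with its partner ARNT), CAGGAAG or CCGGAAG (bound by ETS factors) and AACAAT (bound by SOX factors).
Adgrl4: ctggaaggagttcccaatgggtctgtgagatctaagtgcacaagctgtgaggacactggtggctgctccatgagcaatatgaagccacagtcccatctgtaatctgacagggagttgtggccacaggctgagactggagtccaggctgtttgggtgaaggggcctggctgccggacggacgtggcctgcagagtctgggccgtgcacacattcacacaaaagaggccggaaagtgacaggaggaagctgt
Emcn: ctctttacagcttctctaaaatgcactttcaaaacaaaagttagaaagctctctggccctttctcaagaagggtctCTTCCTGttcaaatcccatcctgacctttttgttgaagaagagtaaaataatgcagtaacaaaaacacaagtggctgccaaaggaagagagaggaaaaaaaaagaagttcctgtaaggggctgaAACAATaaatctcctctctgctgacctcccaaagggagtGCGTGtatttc
Cd34: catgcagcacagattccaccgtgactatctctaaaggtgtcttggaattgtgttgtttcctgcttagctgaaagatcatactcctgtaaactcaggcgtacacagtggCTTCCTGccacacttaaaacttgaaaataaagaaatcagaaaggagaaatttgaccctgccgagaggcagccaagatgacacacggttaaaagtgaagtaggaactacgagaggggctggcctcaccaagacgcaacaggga
Robo4: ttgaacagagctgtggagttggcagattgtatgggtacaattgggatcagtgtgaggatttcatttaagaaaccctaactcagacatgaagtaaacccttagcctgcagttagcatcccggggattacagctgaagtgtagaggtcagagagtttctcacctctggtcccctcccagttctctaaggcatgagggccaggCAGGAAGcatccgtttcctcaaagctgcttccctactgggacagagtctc
Eng: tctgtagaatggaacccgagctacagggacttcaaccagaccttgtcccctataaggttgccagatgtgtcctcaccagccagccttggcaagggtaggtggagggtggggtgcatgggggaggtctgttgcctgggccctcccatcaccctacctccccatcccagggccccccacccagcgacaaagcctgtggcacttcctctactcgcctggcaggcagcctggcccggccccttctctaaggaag

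The AhR core GCGTG was found in the Emcn window alone, 7 to 11 bases before the start, and 28.2% of all 32851 windows of this length hold it. CAGGAAG was found in Emcn, Cd34 and Robo4, and 10.8% of all windows hold it. In Robo4 it lies 44 to 50 bases before the start, and in Cd34 136 to 142 and in Emcn 168 to 174 bases before it, on the other strand. AACAAT was found in Emcn alone (9.42% of all windows), and CCGGAAG in none of the 5 (6.91%). No matches overlapped. The windows of Adgrl4 and Eng, the genes with the lowest and the highest log2 difference, held none of these letters. The share of G and C was 56.8% for Adgrl4, 40.8% for Emcn, 46.4% for Cd34, 49.6% for Robo4 and 62.4% for Eng, where the median window has 52.4%.

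Proteins that bind, neighbour or anchor endothelial junction molecules went both ways. Of 22 such genes 19 were measured and 15 were bright enough to test, 10 of them lower and 5 higher (median log2 difference -0.69). In limma 2 of the 15 were called lower, against a background of 0.753%. At an unadjusted p under 0.05, 7 were lower and 1 was higher, against 12.9% and 7.68%. In 9 both knockout arrays lay below both wild-type arrays and in 4 above, against 26.7% and 28.7%. Tjp1, which encodes the tight junction scaffold ZO-1, fell from 8002 and 10398 in wild type to 1799 and 1938, and its log2 difference was -2.28 ± 0.31 with an adjusted p of 0.0221. Cgnl1, which encodes paracingulin of the junctional plaque, fell from 2022 and 2708 to 642 and 358 (log2 -2.25, adjusted p = 0.0434). These 2 were the only ones called in limma at an adjusted p under 0.05, and without wild type 2 their adjusted p was 0.085 and 0.25. With no filter on low signal it was 0.19 for both, and likewise for Vcam1, Robo1 and Col3a1 below, which ends each of these calls.

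Cldn5, the main claudin of endothelial tight junctions, lay on the opposite side from Cdh5 and Esam. It read 1510 and 1555 in the wild-type cultures against 4688 and 2845 in the knockouts, a log2 difference of 1.24 ± 0.37 with an adjusted p of 0.11. Gja1, the gap junction protein connexin 43, read 9300.3 and 11215 in the wild-type cultures against 4204 and 4221 in the knockouts (log2 -1.27, adjusted p = 0.065). The groups did not overlap for either gene. Ctnnb1 and Ctnna1, the catenins that link cadherins to actin, overlapped between the groups, at 0.10 and -0.0071 on the log2 scale.

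Other surface and secreted genes of blood endothelium were mostly lower. Of 29 listed genes 25 were measured and 20 tested, 18 of them lower and 2 higher (median -0.81). In limma 1 of the 20 was called lower, against a background of 0.753%. At an unadjusted p under 0.05, 9 were lower and 0 higher, against 12.9% and 7.68%. In 14 both knockout arrays lay below both wild-type arrays and in 2 above, against 26.7% and 28.7%. Vcam1, an adhesion molecule for leukocytes that fibroblasts can also make, was the only one called. Its mean signal over the 4 arrays was 85.3, just above the lowest tested mean of 81.1, so it was tested only because wild type was bright. It was not tested with the top 40% of genes or with a filter on mean log2 signal. It fell from 139 and 179 in wild type to 9.09 and 13.9, and its log2 difference was -2.67 ± 0.38 with an adjusted p of 0.0221, and with the mean of its probe sets the difference was -1.51 with an adjusted p of 0.063. Cd93, a C-type lectin of endothelium, read 4916 and 6172 in the wild-type cultures against 1992 and 1340.2 in the knockouts (log2 -1.74, adjusted p = 0.054). Tek, the receptor of angiopoietins, read 316 and 423 in the wild-type cultures against 134 and 79.5 in the knockouts (log2 -1.67, adjusted p = 0.069). Procr, the endothelial protein C receptor, read 6103 and 6398 in the wild-type cultures against 4044 and 2551 in the knockouts (log2 -0.96, adjusted p = 0.16). Vwf, a defining product of blood endothelium, was dim on every array, from 1.40 to 25.8, and was not tested.

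The signalling partners of endoglin gave no call. Of 14 listed genes 10 were tested, 7 of them lower and 3 higher (median -0.43). None passed in limma, where the backgrounds were 0.753% lower and 0.202% higher, so few calls could come from a list this short. At an unadjusted p under 0.05 in limma there were 3 lower genes and 0 higher ones, against backgrounds of 12.9% and 7.68%. Tgfbr1, a type I receptor of TGF-beta, read 416 and 495 in the wild-type cultures against 124 and 178 in the knockouts (log2 -1.51, adjusted p = 0.075). Smad1 and Tgfbr2 differed by -0.93 and -0.81, with adjusted p of 0.20 for both. Id2, a target of bone morphogenetic protein signalling, differed by 0.70 with an adjusted p of 0.30. Id1 and Id3 of the same list differed by 0.056 and -0.52, and both overlapped between the groups. Id1 read 474 and 463 in the wild-type cultures against 1117 and 208 in the knockouts, and Id3 read 1267 and 1279 against 1807 and 425. Acvrl1, the endothelial type I receptor that works with endoglin, read 231 and 178 in the wild-type cultures against 146 and 116 in the knockouts, a log2 difference of -0.58 with an adjusted p of 0.39.

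Of the roundabout family and its Slit ligands, 4 of 9 listed genes were tested, with a median of -0.23. Robo1 alone had both knockout arrays below both wild-type arrays, where the background was 26.7%. It was also the only 1 of the 4 called lower in limma, against 0.753%. Both its knockout readings lay below the lowest tested mean of 81.1, so it was tested only because wild type was bright. Robo1 fell from 241 and 314 in wild type to 58.8 and 58.5, and its log2 difference was -1.96 ± 0.36 with an adjusted p of 0.0434, or 0.38 without wild type 2. Unc5b, a binding partner of ROBO4, read 952 and 1350 in the wild-type cultures against 1378 and 749 in the knockouts, so its groups overlapped. The ligand gene Slit2 read 162 and 207 in the wild-type cultures against 104 and 201 in the knockouts, and Srgap2, which acts below the Robo receptors, read 737 and 648 against 539 and 746. Both overlapped as well.

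**Figure D4:**
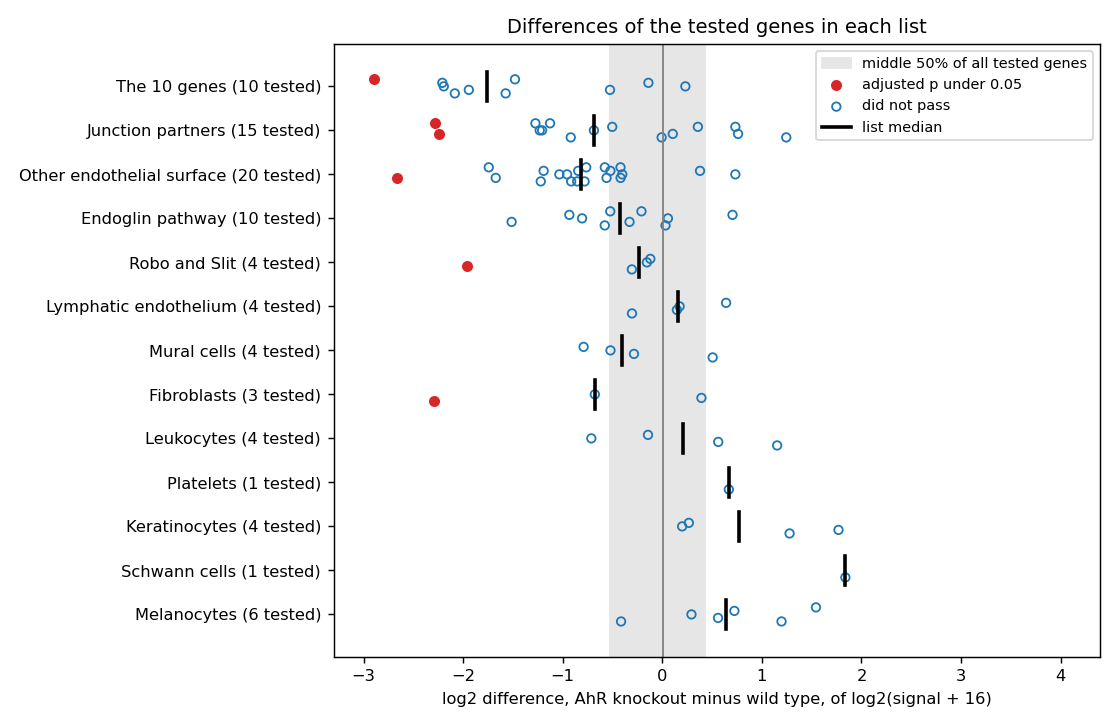
The log2 difference between AhR knockout and wild type (horizontal axis, log2 of signal + 16) of each tested gene in the endothelial and cell type lists, with red points for genes past an adjusted p of 0.05, open points for the others, a black bar for each list's median and a grey band for the middle of all tested genes. The 10 genes have the lowest list median, -1.76, and the melanocyte markers a median of 0.64.

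Markers of other cell types that could carry some of these genes were read beside them. The summed signal of the 10 genes was 25191 and 28347 in the wild-type cultures against 13582 and 7630.3 in the knockouts, so the groups did not overlap. The summed signal of 6 melanocyte markers was 64024 and 52670 in the wild-type cultures against 73204 and 100760 in the knockouts. These sums include very bright genes such as Dct and Tyrp1. The highest signal of any probe set was 38759 on AhR knockout 2 and between 23507 and 25679 on the other arrays. The part of this wider range in the sum of AhR knockout 2 was not tested. Of these 6 markers 5 were higher and 1 lower, with a median of 0.64. Tyr, which encodes tyrosinase, differed by 1.20 and Sox10, a lineage factor, by 1.54, with adjusted p of 0.10 and 0.11. Mitf, also a lineage factor, was the lower marker. It read 2771 and 2644 in the wild-type cultures against 1668 and 2462 in the knockouts (log2 -0.41, adjusted p = 0.52 in limma). The share of melanocytes in each culture was not measured.

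Of the 4 tested lymphatic endothelial markers, 3 overlapped between the groups and Reln lay higher on both knockout arrays. Over all tested genes, 28.7% lay higher and 26.7% lower on both knockout arrays, so these counts are not particular to the list. Lyve1, the lymphatic hyaluronan receptor, read 7177 and 11546 in the wild-type cultures against 7727 and 7026 in the knockouts, so its groups overlapped. Flt4, the receptor of lymphatic growth factors, read 1902 and 2560.1 in the wild-type cultures against 2505 and 2478 in the knockouts, and Pdpn also overlapped. The median of the 4 tested lymphatic markers was 0.16. In limma 0 were called or had an unadjusted p under 0.05, where the backgrounds of the latter were 12.9% lower and 7.68% higher. Prox1, the defining transcription factor of this lineage, was dim, from 16.7 to 24.3.

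Leukocytes and platelets carry Pecam1 and Icam2, and their markers ranged from dim to bright. Ptprc, the pan-leukocyte gene, read between 2.06 and 26.1 on the 4 arrays, and Itgam between 2.16 and 10.2. Cd14, a receptor for bacterial lipopolysaccharide, read 799 and 731 in the wild-type cultures against 3122 and 943 in the knockouts, and Cd68, a lysosomal protein of macrophages, read 819 and 578 against 808 and 208. Csf1r, the receptor of macrophage growth factor, read 111 and 98.4 against 138 and 189. Of 9 leukocyte markers 4 were tested, of which 2 were higher and 2 lower. In limma 0 passed or had an unadjusted p under 0.05, where the backgrounds of the latter were 12.9% lower and 7.68% higher. The summed signal of all 9 was 2036 and 1664 in the wild-type cultures against 4363 and 1670.3 in the knockouts. Of 4 measured platelet markers Pf4 alone was tested, at 143 and 165 in the wild-type cultures against 348 and 183 in the knockouts, and the summed signal of the 4 was between 268 and 277 in the wild-type cultures against between 284 and 478 in the knockouts.

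Markers of mural cells, fibroblasts, keratinocytes and Schwann cells went different ways. Of 8 mural markers 4 were tested, of which 3 were lower, with a median of -0.40, and their summed signal was 3803 and 2909 in the wild-type cultures against 2865 and 3432 in the knockouts. Of 7 fibroblast markers 3 were tested, of which 2 were lower. Col3a1, a fibrillar collagen, fell from 372 and 439 to 95.1 and 50.5 (log2 -2.29, adjusted p = 0.0409), or with an adjusted p of 0.15 without wild type 2. The mean of Col3a1 over the knockout arrays was 72.8, below the lowest tested mean of 81.1, so it passed the signal filter through wild type. The summed signal of the fibroblast markers was 2476 and 4856 in the wild-type cultures against 2499 and 1609 in the knockouts. Most of this sum was Thy1, which read 1886 and 4063 in the wild-type cultures against 2181 and 1363 in the knockouts, so its groups overlapped. Dcn, also tested, was higher by 0.39 on the log2 scale, and its groups overlapped too.

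All 4 tested keratinocyte markers overlapped between the groups, where 26.7% of all tested genes lay lower and 28.7% higher on both knockout arrays. At an unadjusted p under 0.05 in limma there were 0, against 12.9% lower and 7.68% higher. Krt14 read 30.8 and 11.4 in the wild-type cultures, 539 for AhR knockout 1 and 10.9 for AhR knockout 2, so it was tested only because AhR knockout 1 was bright. Krt5 read 31.4 and 69.5 in the wild-type cultures against 305 and 58.3 in the knockouts. Krt10 and Sox9 were highest on AhR knockout 2. The summed signal of 8 measured keratinocyte markers was 274 and 275 in the wild-type cultures against 1025 and 411 in the knockouts. Krt15 and Lhx2, markers of the hair follicle stem cells that also carry CD34, read at most 3.25 and 3.52 on any array. Sox9, also listed for hair follicle cells, was brighter. It read 124 and 82.1 in the wild-type cultures against 99.5 and 157 in the knockouts, so these markers do not settle whether such cells were present. S100b, made by glia and melanocytes, was the 1 tested Schwann marker and read 900 and 1387 in the wild-type cultures against 2867 and 5682 in the knockouts (log2 1.84, adjusted p = 0.069). Whether the makeup of the cultures had a part in the lower endothelial signal was not tested.

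The genes most like the average pattern of the 10, by Euclidean distance over the 4 arrays of log2 values centred on each gene's mean, were P4ha1, Rcbtb2, Ccdc71l, Adamts7 and Etv3. Their distances were between 0.084 and 0.13, closer than any of the 10 genes themselves, of which Robo4 was nearest at 0.33 and Eng farthest at 1.91. P4ha1, a collagen prolyl hydroxylase subunit, read 514 and 540.0 in the wild-type cultures against 285 and 125 in the knockouts. The log2 differences of the 5 lay between -1.50 and -1.36, which follows from their being picked for this likeness. In limma 0 passed, with adjusted p from 0.099 to 0.13, where 0.753% of all tested genes were called lower. This count follows from the choice as well. Likeness over 4 arrays is a description that rests on few points.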

How the data were processed

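Amplified, biotin-labelled RNA was measured on 1-colour arrays, per the labels' protocols. The authors deposited linear signal intensity from MAS5, per the submitters' processing notes, with no version. Each array's trimmed mean was between 500.2 and 500.3, so a shift of most transcripts would be divided out. Detection calls and any filter by the authors were not stated in those sources. The number of arrays limits the precision.

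Of 22690 probe sets, 64 were controls, 20380 had 1 gene symbol, 691 several and 1555 none in the platform annotation. Symbols were updated through gene identifiers to RefSeq (GRCm38.p6), which matched 20351. The values were converted to log2(signal + 16), and the top 60% of genes by mean signal over all arrays were tested, 7436 with a lowest mean of 81.1. All 10 endothelial genes passed this filter. Groups, from the titles, were compared with limma 3.58.1 (lmFit, eBayes with trend) in R 4.3.3, without a block. P-values were adjusted over all tested genes by Benjamini and Hochberg, and the threshold was 0.05. An exact permutation of 2 against 2 arrays cannot go below a share of 33.3%. The fit was tested on simulated data with the same noise for every gene and both groups. Since the knockout arrays differed more from each other than the wild-type arrays, that run does not show how the fit behaves on these data. Over all genes 56 were lower and 15 higher, so 21.1% of calls were rises, or 32.9% with array medians set equal, which moved the median of all genes to 0.091.

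Lists were described by counts and medians. From each list, the members past the threshold and up to 4 with the smallest p could be named. Vwf, Acvrl1, Id1, Id3, Ctnnb1, Ctnna1, Mitf, Prox1, Ptprc, Itgam, Krt15 and Lhx2 were named in addition, after their values were seen. The 10 genes, the lists and the tests were chosen with earlier results of these data known. Alternatives covered normalization, pseudocount, filter, probe set rule, eBayes options, block, threshold and each array left out. Figures were drawn with matplotlib 3.10.9.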

Additional observations from a re-analysis of the deposited data

How the results depend on the processing

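Apart from Icam2, the direction of the 10 endothelial genes held under every alternative run. Icam2 was 0.13 without AhR knockout 2 (and -1.19 without AhR knockout 1). The run with every probe set by itself read each of the 10 at its main probe set only. It could not show a change of sign between probe sets. The second probe set of Eng was at -0.21 against 0.23 for the main one, and averaging them gave 0.023. The median log2 difference of the 10 genes was between -1.79 and -1.64 under the settings that keep all arrays. With single arrays left out it was between -2.56 and -1.05. The number called lower was 1, and it was 2 with a pseudocount of 64 or with probe sets averaged per gene (Cd34 joining Adgrl4), 5 at an adjusted p under 0.10, and from 1 to 8 with single arrays left out. Without the signal filter 0 of the 10 were called by limma, with 7 lower at an unadjusted p under 0.05, and Adgrl4 then had an adjusted p of 0.19 (the cause was not tested). Elsewhere the adjusted p of Adgrl4 stayed at or below 0.039. Of the other named calls, Cgnl1, Robo1 and Col3a1 had an adjusted p of 0.053 with quantile normalization and from 0.067 to 0.077 with every probe set by itself, and with a pseudocount of 1 it was 0.051 for Cgnl1 and 0.052 for Robo1. Vcam1 was not tested with the top 40% of genes or with the filter on mean log2 signal.

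Over all tested genes the calls were 56 lower and 15 higher. They were 19 and 7 with quantile normalization, 34 and 9 with a pseudocount of 1, 15 and 5 with the top 40% of genes, 23 and 7 with every probe set by itself, 281 and 83 at an adjusted p under 0.10, and 1 and 0 without the filter (1029 and 840 at an unadjusted p under 0.05). The higher calls were 24 with array medians set equal, and also 24 with probe sets averaged. With single arrays left out the calls were from 16 to 828 lower and from 4 to 532 higher. A filter on mean log2 signal, chosen after seeing the data, gave 41 and 10, and 1 of the 10 genes.

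The title numbers were used as a replicate block, which called 7 of the 10 genes lower (all but Icam2, Eng and Plvap) and 966 genes lower (13% of those tested) and 440 higher in all. The labels state no shared litter, batch or day. Same-numbered arrays deviated together across genes with a correlation of 0.35, but with 2 pairs the numbers were not taken as pairing. The cause of the differences between settings was not tested where not stated. Dim genes such as Vwf and Prox1 were too close to background for a comparison.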
